A study of Drosophila melanogaster with 18 samples.

Results

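The chemosensory receptor genes of Drosophila melanogaster were followed through Targeted DamID profiles of the larval eye-antennal disc. The set held every protein-coding gene in the RefSeq table of the dm6 assembly whose symbol is Or, Gr or Ir followed by a number and letters, together with Orco, and came to 180 of 13946 protein-coding genes. There were 60 odorant receptors (Or), 60 gustatory receptors (Gr) and 60 ionotropic receptors (Ir). The rule picks genes by symbol and uses no reading of these libraries. Reads were summed over a window for each gene, its span with 1 kb on both sides.

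Odorant receptors are ligand-gated cation channels of olfactory neurons, and each works together with the shared coreceptor Orco. Gustatory receptors act in taste neurons, and some also sense carbon dioxide, heat or light. Ionotropic receptors derive from glutamate receptors and detect acids, amines, humidity and cooling, with Ir8a, Ir25a and Ir76b as widely shared coreceptors. The eye-antennal disc forms the adult eye, antenna and maxillary palp, but the olfactory neurons of the antenna are born after the stage sampled here, and the adult receptor genes are switched on later still, in the pupa.

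In Targeted DamID a bacterial adenine methyltransferase (Dam), free or joined to a chromatin protein, marks the GATC sites around it with methyl groups, and the marked fragments are cut out, amplified and sequenced. There were 18 libraries in 6 groups with 3 replicates each, from eye-antennal discs of early third-instar larvae. The fusion groups carried UAS-Dam-Sd, UAS-Yki-Dam or UAS-Dam-Jra, and the Dam groups of Sets 1, 2 and 3 carried UAS-Dam. All 6 groups also carried Eyeless-Gal4 with the temperature-sensitive repressor Gal80ts, so a reading comes from the disc cells in which Eyeless-Gal4 was active during the last 24 hours, spent at 29 °C after egg laying at 25 °C and 4 days at 18 °C. Scalloped (Sd), the fly TEAD protein, binds DNA at Hippo pathway targets, Yorkie (Yki) is its coactivator, and Jun-related antigen (Jra) is the fly Jun of AP-1, which acts downstream of JNK. Dam-Sd was set against Dam of Set 1 and Yki-Dam against Dam of Set 2, so these comparisons have no library in common. The titles also place Dam-Jra in Set 1, whereas no fusion carries the Set 3 label. Dam-Jra was therefore set against the mean of the 3 Dam sets, 9 libraries in all, and shares these with the other comparisons. Nothing in the labels says whether replicates were separate crosses or pools of discs, so the p-values measure the spread between these libraries, which may be technical. In bulk discs, fewer cells reached by a protein and less contact per cell cannot be told apart.

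Totals per library ran between 21.42 and 40.97 M reads, with M standing for 1000000 reads. Replicate 3 of Dam-Sd stood apart from its group, with a scaling factor of 0.9557, against 0.5601 and 0.6555 for the other Dam-Sd libraries. As a check of the labelled tissue, 12 listed eye-antennal disc genes, among them ey, so, eya and dac, had a median Dam-alone percentile of 85.1 among protein-coding genes. Of these, 10 lay above the median and 1 in the lowest 25%. All 12 also rose in each fusion by edgeR's quasi-likelihood test at an adjusted p below 0.05. Of all windows, 25.5%, 21.1% and 32.3% rose and 29.0%, 15.3% and 36.2% fell in Dam-Sd, Yki-Dam and Dam-Jra. Such calls read the fusion and do not check the tissue. Of 5 listed genes of mature neurons (elav, nSyb, Syt1, brp and para), 1 rose in each fusion (brp in Dam-Sd, elav in Yki-Dam and Dam-Jra) and 1, 2 and 3 fell in Dam-Sd, Yki-Dam and Dam-Jra, and their median Dam-alone percentile was 15.8. The 180 receptor windows held 5312 of the 767321 GATC ends counted, a median of 28 each with a range from 4 to 736. Ir41a had the most ends and the longest span, 104.437 kb, while the median span was 1.692 kb. Or10a and Gr10a have one and the same span, as do Gr64b and Gr64c, which left 178 distinct windows. Of the 180, 30 lay inside another gene, 70 more shared ends with a gene that is no receptor, 40 shared ends with other receptors only, and 40 shared none. The receptor windows sat on 2L (31), 2R (46), 3L (35), 3R (43) and X (25).

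With free Dam most receptor genes had lower levels than the median protein-coding gene, and the odorant receptors had the lowest family median. The Dam-alone level, the mean of the 9 Dam libraries in scaled counts per 1000000 reads and kilobase (CPM per kb), had a median of 2.71 over the 180 receptors, against 4.80 over all protein-coding genes. The family medians were 2.03 for Or, 3.35 for Gr and 2.64 for Ir. Ranked among all protein-coding genes, the receptors had a median percentile of 27.6, with 19.5 for Or, 35.3 for Gr and 26.8 for Ir. The lowest 25% of protein-coding genes held 83 of the 180 receptors (46.1%), made up of 37 Or, 19 Gr and 27 Ir. Above the median stood 47 receptors (26.1%), of which 9 were Or, 21 Gr and 17 Ir, and 14 reached the highest 25%. The share in the lowest 25% was smaller with the flanks left out, 57 receptors (31.7%). These were 25 Or (41.7%), 14 Gr (23.3%) and 18 Ir (30.0%), so Gr was then near 25%. Without flanks 61 receptors (33.9%) stood above the median. These ranks are a description of the libraries and carry no test.

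**Figure D1:**
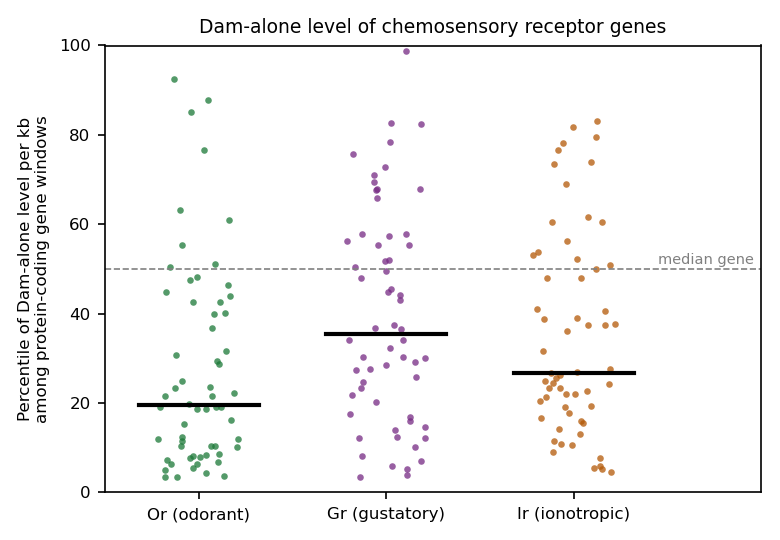
Dam-alone level of each receptor gene, as its percentile among protein-coding genes (vertical axis, 0 to 100), by family; each point is 1 gene and each bar a family median. The Or median lies at 19.5, below those of Ir (26.8) and Gr (35.3), and a few members of each family lie above 75.

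The neighbourhood of a receptor went with its Dam-alone level. The 40 receptors that shared no ends with any gene had a median of 1.47 CPM per kb, percentile 13.2, and 30 of them stood in the lowest 25% of protein-coding genes. The 40 that shared ends with other receptors only had a median of 2.62 CPM per kb (percentile 26.6). The 70 that shared ends with other kinds of gene had 3.51 (percentile 37.0), and the 30 inside another gene had 4.10 (percentile 43.2). With the flanks left out the median percentile of all receptors was 37.1, and per GATC end in place of per kb it was 28.3.

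At the low end of each family the Dam-alone level was under 1 CPM per kb. Or22c had 0.532 CPM per kb (percentile 3.42), Or35a 0.555, Or85b 0.559, Or98b 0.640 and Or59a 0.715. Among Gr genes the lowest were Gr28a with 0.541 CPM per kb (percentile 3.5), Gr57a with 0.612, Gr23a with 0.731, Gr89a with 0.802 and Gr33a with 0.904. Among Ir genes they were Ir11a with 0.664 CPM per kb (percentile 4.56), Ir67a with 0.724, Ir84a with 0.750, Ir7e with 0.803 and Ir75c with 0.960. Gr33a and Gr89a belong to the receptors that most bitter-sensing neurons share, and Ir84a senses aromatic compounds of food and acts in male courtship. The windows of Gr89a and Gr33a hold only 4 and 8 GATC ends, and per end they stood at percentiles 46.4 and 35.7, whereas the other 13 genes stood at 11.6 or lower.

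The high end held a few genes of each family. Or47a had 17.1 CPM per kb (percentile 92.5) with single Dam libraries between 8.72 and 28.2, ahead of Or43b with 13.3, Or65a with 12.1, Or85f with 9.12 and Or83a with 6.54. Gr39b had the highest Dam-alone level of all 180, 37.3 CPM per kb (percentile 98.8), with single Dam libraries between 5.56 and 65.3 and a median library of 32.4. These ranks hold for windows with flanks: in the span alone Gr39b had 7.02 CPM per kb (percentile 66.9) and Or47a 7.64, and the highest receptors were Or85f with 15.9 and Gr93a with 14.2. Gr94a had 11 CPM per kb, Gr93a 10.9, Gr93d 9.56 and Gr93c 8.85. The highest Ir genes were Ir67c with 11.2 CPM per kb, Ir68a with 10.7, Ir52d with 9.88, Ir94e with 9.50 and Ir51b with 9.11. In the span alone Ir67c had 6.70 and Ir68a 5 CPM per kb.

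The shared coreceptors were not at either extreme. Orco was at percentile 29.3 of the Dam-alone level (2.86 CPM per kb) and Ir76b at 24.2 (2.41 CPM per kb). Ir8a was at 37.5 (3.57 CPM per kb), Ir93a at 38.8 and Ir25a at 53.2 (5.18 CPM per kb). The carbon dioxide receptor subunits Gr21a and Gr63a were at 14.6 and 21.7, the sugar receptor Gr5a at 24.6, the fructose receptor Gr43a at 45.5 and the bitter receptor Gr66a at 65.8.

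In every library the median receptor lay below the median protein-coding gene, and in each comparison the ratio of these medians was lower with the fusion than with Dam. In Dam-Jra libraries the median receptor had 0.245 of the protein-coding median (0.232 to 0.259), against 0.468 (0.435 to 0.490) in Dam of Set 3 and 0.435 to 0.790 over the 9 Dam libraries. The Dam-Jra libraries lay below all 9 Dam libraries. In Yki-Dam libraries it was 0.447 (0.415 to 0.478), against 0.712 (0.665 to 0.790) in Dam of Set 2, again with no overlap. In Dam-Sd libraries it was 0.422 (0.278 to 0.517), against 0.576 (0.473 to 0.647) in Dam of Set 1, and these ranges overlapped. By family, the Or median in Dam-Jra libraries was the lowest of all, 0.140 of the protein-coding median (0.111 to 0.163), against 0.312 (0.299 to 0.336) in Dam of Set 3. The Gr median was 0.384 in Dam-Jra, against 0.636 in Dam of Set 3, and the Ir median was 0.271, against 0.481.

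**Figure D2:**
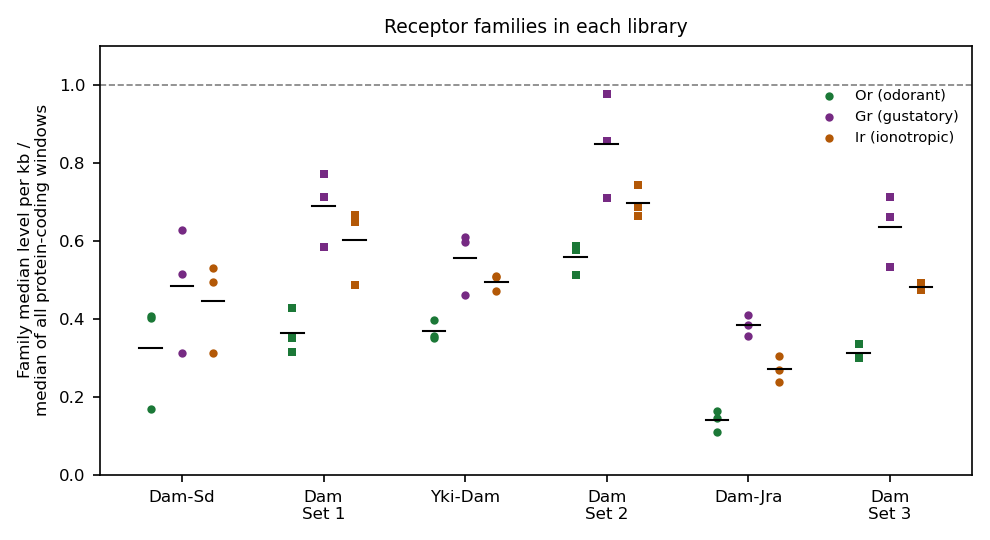
Median level of each receptor family in each library, as a ratio to the median protein-coding gene (vertical axis), with fusion libraries as circles left of their Dam libraries as squares; bars are means of 3 libraries. All ratios lie below 1, and the Or ratio of Dam-Jra is the lowest with a mean of 0.140.

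Against Dam, more receptor windows fell than rose with each fusion. With Dam-Sd 13 rose and 62 fell (7.22% and 34.4%), where 25.5% of all 14090 windows tested rose and 29.0% fell. The median log2 fold change of the receptors was -0.60, against -0.18 for all windows. Without Dam-Sd replicate 3, 15 rose and 86 fell, in a fit whose shares over all windows are not given here. With Yki-Dam 11 rose and 45 fell, where 21.1% of all windows rose and 15.3% fell, and the medians were -0.69 for the receptors and -0.13 for all windows. With Dam-Jra 18 rose and 131 fell (72.8%), where 32.3% of all windows rose and 36.2% fell, and the medians were -1.46 for the receptors and -0.10 for all windows. All fusion libraries lay above all Dam libraries for 16 receptors in Dam-Sd and below them for 68, against 25.4% and 31.5% of all windows. In Yki-Dam these counts were 13 and 87, against 23.1% and 26.5%, and in Dam-Jra 14 and 103, against 26.3% and 28.0%. The other 105, 124 and 31 receptors passed the test in neither direction, and 130, 143 and 148 of the 180 lay below the median fold of all windows in Dam-Sd, Yki-Dam and Dam-Jra.

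The comparisons rest on different numbers of libraries and on a scaling. With Dam of Set 3 alone, Dam-Jra gave 10 higher and 106 lower receptors, where 22.7% of all windows rose and 27.5% fell, and the receptor median was -1.06. With Dam of Set 1 alone, the set in the Dam-Jra titles, 18 rose and 128 fell, where 31% of all windows rose and 36.3% fell. With the replicate number as a block, Yki-Dam gave 13 higher and 95 lower, where 27.8% of all windows rose and 26.7% fell. Scaling by library size alone moved the median fold of all windows to -1.21 (Dam-Sd), -0.95 (Yki-Dam) and -1.03 (Dam-Jra) and lowered most windows. With it 5 receptors rose and 137 fell in Dam-Sd, where 8.43% of all windows rose and 67.3% fell. In Yki-Dam 5 rose and 139 fell, where 7.52% rose and 58.9% fell, and in Dam-Jra 4 rose and 160 fell, where 11.5% rose and 66.5% fell. Relative to the median of all windows, the receptor median was -0.36, -0.57 and -1.37 with that scaling, against -0.41, -0.56 and -1.36 with trimmed-mean scaling.

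**Figure D3:**
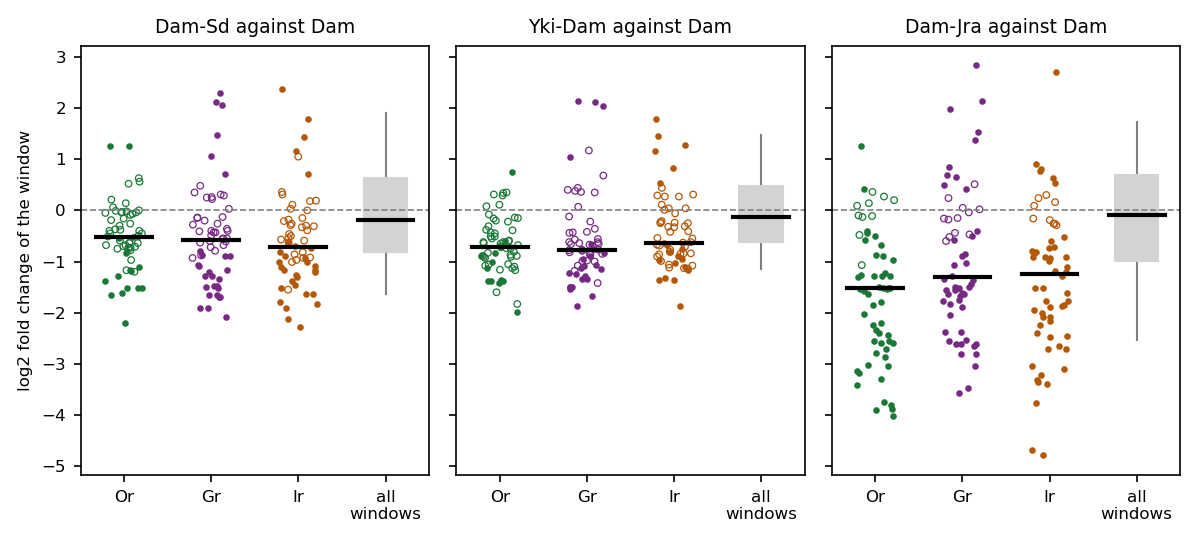
Log2 fold change of each receptor window in Dam-Sd, Yki-Dam and Dam-Jra against Dam (1 panel each), by family; filled points passed the test, open points did not, bars are family medians, and the grey box and line mark the quartiles and the 5% to 95% range of all 14090 windows. The receptors spread mostly below 0, furthest in Dam-Jra where the medians are -1.52 (Or), -1.31 (Gr) and -1.25 (Ir), with a few points over 2 in each panel.

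By family, Dam-Sd gave 2 higher and 15 lower Or (median log2 -0.52), 6 higher and 22 lower Gr (-0.58), and 5 higher and 25 lower Ir (-0.72). The lower shares were 25.0% of Or, 36.7% of Gr and 41.7% of Ir, against 29.0% of all windows. The Or count depended on single libraries, with 27 lower without Dam-Sd replicate 3 and 8 without Dam of Set 1 replicate 3. Yki-Dam gave 1 higher and 11 lower Or (-0.71), 4 higher and 20 lower Gr (-0.78), and 6 higher and 14 lower Ir (-0.64). The lower shares were 18.3%, 33.3% and 23.3% of Or, Gr and Ir, against 15.3% of all windows. Here too single libraries moved the counts: without Yki-Dam replicate 1 there were 18 lower Or, 8 higher Gr and 3 higher Ir. Without Dam of Set 2 replicate 1 there were 7 lower Ir, and without its replicate 2 there were 9 lower Ir and 12 lower Gr. Without Yki-Dam replicate 2 or replicate 3 no Or rose (0 of 60). Dam-Jra gave 2 higher and 48 lower Or (-1.52), 10 higher and 38 lower Gr (-1.31), and 6 higher and 45 lower Ir (-1.25). The lower shares were 80.0%, 63.3% and 75% of Or, Gr and Ir, against 36.2% of all windows. The higher Or, Or67a and Or10a, came down to 1 without Dam-Jra replicate 1 or replicate 2. With Dam of Set 3 alone the same fusion gave 1 higher and 37 lower Or, 5 higher and 33 lower Gr, and 4 higher and 36 lower Ir. The 40 receptors that shared no ends with any gene gave 3 higher and 34 lower in Dam-Jra, with a median log2 of -2.02. In Dam-Sd the same 40 gave 3 higher and 6 lower, with a median of -0.24, near that of all windows.

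Among the coreceptors, Orco was lower in all 3 Dam-Jra libraries than in any of the 9 Dam libraries. It had 6.82, 7.91 and 6.73 CPM in Dam-Jra, against 14.8, 20.7 and 24.9 CPM (lowest, median and highest) in Dam, a log2 fold change of -1.53 ± 0.20 (SE, adjusted p = 1.63e-06) and -1.59 with Dam of Set 3 alone. In Yki-Dam Orco had 10.9, 9.93 and 11.8 CPM, against 14.8, 24.4 and 18.8 CPM in Dam, and fell by 0.83 on the log2 scale (SE 0.22, adjusted p = 0.00618). In Dam-Sd it had 11.8, 17.3 and 14.4 CPM, against 18.5, 23.6 and 21.1 CPM in Dam. That difference of -0.54 ± 0.22 passed the test (adjusted p = 0.0416) but not with the replicate block (-0.55, adjusted p = 0.0684). It was also lost without Dam-Sd replicate 1 (-0.46) or replicate 3 (-0.51) and without Dam of Set 1 replicate 2 (-0.45) or replicate 3 (-0.54).

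Ir25a, a coreceptor of many ionotropic receptors, differed between the fusions. It had 7.50, 8.28 and 10.1 CPM in Dam-Sd, against 33.5, 34.7 and 44.8 CPM in Dam, and fell by 2.12 (SE 0.22, adjusted p = 4.72e-07). In Yki-Dam it had 26.2, 15.8 and 16.4 CPM, against 33.8, 31.3 and 27.6 CPM in Dam, and fell by 0.67 (adjusted p = 0.0174), a call lost without Dam of Set 2 replicate 1 (-0.60, adjusted p = 0.0509). In Dam-Jra it had 33.4, 28.2 and 25.7 CPM, against 27.6, 33.4 and 44.8 CPM in Dam, and did not pass the test (-0.19 ± 0.17). The groups were far apart with Dam-Sd and overlapped with Dam-Jra.

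Ir93a acts with Ir25a in sensing humidity and cooling. It had 18.9, 19.3 and 23.2 CPM in Dam-Sd, against 52.4, 37.4 and 48.8 CPM in Dam, and fell by 1.17 (SE 0.18, adjusted p = 2.25e-05). It had a log2 difference of -0.25 ± 0.18 in Yki-Dam, which did not pass, and fell by 0.53 (adjusted p = 0.00388) in Dam-Jra. Ir8a, the coreceptor of acid-sensing receptors, had 10.6, 12.8 and 12.3 CPM in Dam-Jra, against 13.3, 19.7 and 36.4 CPM in Dam, and fell by 0.80 (adjusted p = 0.00582), but did not pass with Dam of Set 3 alone (-0.56, adjusted p = 0.103). It did not pass in Dam-Sd (-0.50) or Yki-Dam (0.01). Ir76b passed in none of the 3 (0.36 in Dam-Sd, -0.41 in Yki-Dam, 0.30 in Dam-Jra).

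Of the odorant receptors listed for their known ligands, Or22a, a receptor of fruit esters, showed the widest gap. It had 1.28, 2.15 and 2.65 CPM in Dam-Jra, against 8.65, 10.6 and 15.1 CPM in Dam, and fell by 2.44 (SE 0.34, adjusted p = 3.77e-06), or -2.32 with Dam of Set 3 alone. It did not pass in Dam-Sd (-0.68 ± 0.35) or Yki-Dam (-0.55 ± 0.35). The pheromone receptors Or47b and Or67d fell in Dam-Jra by 1.28 and 1.29 (SE 0.27 and 0.26), with no Dam-Jra library above any Dam library. In Yki-Dam Or47b fell by 1.00 (adjusted p = 0.0152), but this was lost without Dam of Set 2 replicate 1 (-0.66), and Or67d did not pass (-0.60) except with the block (-0.57, adjusted p = 0.0194). Or83a fell with each fusion, by 1.16 ± 0.30 in Dam-Sd, 1.13 ± 0.30 in Yki-Dam, 1.57 ± 0.26 in Dam-Jra. It lies inside CG1172, which rose in the same comparisons (1.66, 0.92 and 1.08), and only 2 of its 18 ends lie in no other gene's span. On those 2 ends the fall did not pass in Dam-Sd (-0.45, adjusted p = 0.513) or Yki-Dam (-1.33, adjusted p = 0.0711) and passed in Dam-Jra (-1.69, adjusted p = 0.00991).

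The vinegar receptors Or92a and Or42b gave calls that rested on single libraries. Or92a had 1.92, 8.85 and 8.45 CPM in Dam-Sd, against 15.8, 22.1 and 20.9 CPM in Dam, with no overlap. Its fall of 1.61 (SE 0.56, adjusted p = 0.0211) was lost without Dam-Sd replicate 1 (-1.23) and without Dam of Set 1 replicate 2 (-1.52) or replicate 3 (-1.56). In Dam-Jra Or92a did not pass (-1.07, adjusted p = 0.056), and with Dam of Set 1 alone it did (-1.66, adjusted p = 0.0144). Or42b fell by 0.87 in Dam-Jra (adjusted p = 0.0306), and the value was -0.18 with Dam of Set 3 alone and -0.54 with Dam of Set 1 alone, neither called. That call was also lost without Dam-Jra replicate 1 (-0.74), Dam of Set 1 replicate 3 (-0.80) or Dam of Set 2 replicate 2 (-0.82).

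Of the carbon dioxide receptor pair, Gr21a passed in Yki-Dam and Dam-Jra, and no test compared the 2 genes. Gr21a fell by 1.37 in Dam-Jra (SE 0.35, adjusted p = 0.0018), with 2.01, 3.66 and 2.32 CPM in Dam-Jra, against 4.40, 6.81 and 11.9 CPM in Dam. It also fell by 1.14 in Yki-Dam (adjusted p = 0.0284), a call lost without Dam of Set 2 replicate 2 (-0.87) or replicate 3 (-1.02), and was at -0.41 in Dam-Sd, which did not pass. Gr63a passed with no fusion (-0.43 in Dam-Sd, -0.64 in Yki-Dam, -0.47 in Dam-Jra), although it did in Yki-Dam with the block (-0.60, adjusted p = 0.0238).

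Among the sugar receptors, the cluster of Gr64a to Gr64f on chr3L:4026769-4037575 had 0 members higher in any fusion. It had 5 of 6 lower in Dam-Sd (log2 -1.66 to 0.03), 5 lower in Yki-Dam (-1.34 to -0.12) and 4 lower in Dam-Jra (-1.61 to 0.24), where Gr64b and Gr64c count as 2 although they have 1 span. Gr64a passed in none (in Dam-Jra it passed at 0.92 with Dam of Set 1 alone), while Gr64f, a coreceptor for sugars, fell by 0.89 in Dam-Sd and by 0.65 in Yki-Dam. The Yki-Dam call was lost without Dam of Set 2 replicate 1 (-0.59) or replicate 3 (-0.63). Gr5a, the trehalose receptor, had 2.96, 4.60 and 7.96 CPM in Dam-Sd, against 11.6, 11.3 and 10.2 CPM in Dam, and fell by 1.09 (SE 0.31, adjusted p = 0.00572). In the other fusions Gr5a did not pass (0.40 in Yki-Dam and 0.02 in Dam-Jra).

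The fructose receptor Gr43a had 2.32, 4.91 and 7.21 CPM in Dam-Sd, against 14.5, 20.2 and 26.6 CPM in Dam, and fell by 2.08 (SE 0.31, adjusted p = 1.93e-05). Its values were -1.08 in Yki-Dam and -0.86 in Dam-Jra, both called. None of these calls was made in the gene span alone, where the values were -1.01, -0.39 and -0.04. Gr66a, which marks bitter neurons, fell by 0.80 in Dam-Sd (SE 0.21, adjusted p = 0.00305). In Dam-Jra it was at -0.41 (adjusted p = 0.0434), a call lost in 9 of the 12 fits that left out 1 library (-0.45 to -0.36), all but those without replicate 2 of Set 1, replicate 2 of Set 2 or replicate 3 of Set 3. Gr28b, a receptor of heat and light, was 1 of the few that rose in Dam-Sd, by 0.72 (adjusted p = 0.013). It had 55.4, 43.1 and 40.7 CPM in Dam-Sd, against 24.2, 31.4 and 29.0 CPM in Dam, but the call was lost without Dam-Sd replicate 1 (0.52) or Dam of Set 1 replicate 1 (0.62), and the sign turned with scaling by library size alone (-0.38).

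The lowest folds of all were those of Dam-Jra, where the windows came close to empty. Ir7e had 3, 3 and 2 reads in the Dam-Jra libraries, or 0.120, 0.119 and 0.0736 CPM, against 76, 128 and 270 reads (lowest, median and highest) in the 9 Dam libraries, or 1.56, 3.52 and 4.02 CPM. Its log2 fold change was -4.79 ± 0.52 (adjusted p = 1.92e-07). Ir7a, a taste receptor for acetic acid, had 11 reads over the Dam-Jra libraries and a log2 of -4.68 ± 0.79, and Ir11a had 14 reads, 1 library at 0, and -3.76 ± 0.75. Among Or genes, Or33a had 13 reads and -4.01 ± 0.62, Or59a 9 reads and -3.90 ± 0.82, and Or94b 14 reads and -3.88 ± 0.58. Among Gr genes, Gr23a had 18 reads and -3.57 ± 0.55, Gr57a 12 reads and -3.48 ± 0.66, and Gr36b 40 reads and -3.04 ± 0.70. With so few reads the size of these folds is known only roughly, though for each of these 9 genes all Dam-Jra libraries lay below all Dam libraries. With Dam of Set 3 alone all 9 still passed, at -4.15 for Ir7e, -3.09 for Ir7a, -2.87 for Ir11a, -3.04 for Or33a, -2.47 for Or59a, -3.52 for Or94b, -2.97 for Gr23a, -2.63 for Gr57a and -1.96 for Gr36b. Ir64a, an acid receptor of the antenna, was better covered, with 2.09, 0.795 and 0.478 CPM in Dam-Jra, against 5.74, 8.62 and 20.1 CPM in Dam. Its log2 fold change was -3.10 ± 0.51 (adjusted p = 3.06e-05), and -2.70 with Dam of Set 3 alone. Ir84a (-3.21 ± 0.69) and Gr33a (-2.56 ± 0.60, with overlapping groups) also passed, but with Dam of Set 3 alone they were at -1.73 (adjusted p = 0.0613) and -0.86 (adjusted p = 0.287).

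Several tandem clusters were low as a block in Dam-Jra. The clusters Ir7c to Ir7g (5 genes, log2 -4.79 to -0.83), Gr22a to Gr22d (4 genes, -2.81 to -1.56), Ir52a to Ir52d (4 genes, -1.86 to -0.60), Or33a to Or33c (3 genes, -4.01 to -2.34) and Ir75a to Ir75c (3 genes, -2.70 to -1.51) each had all members lower. Ir7c takes part in the taste of high salt and Ir75a is a receptor for acetic acid. The members of a cluster share GATC ends and are not independent of each other. Gr93b to Gr93d went the other way, with all 3 higher in Dam-Jra (0.65 to 1.37). Of the 24 clusters, which held 68 receptors, 13 had 3 or more genes.

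In Dam-Sd the 3 lowest called genes of each family were Or59c (-2.20 ± 0.58), Or2a (-1.65 ± 0.40) and Or92a, then Gr43a, Gr59e and Gr59f (both -1.91), and Ir60d (-2.28 ± 0.50), Ir25a and Ir60e (-1.90 ± 0.40). Or59c had 0.247, 0.876 and 2.29 CPM in Dam-Sd, against 4.11, 6.29 and 5.55 CPM in Dam. Ir60d had 0.789, 1.71 and 4.66 CPM in Dam-Sd, against 12.1, 11.1 and 12 CPM in Dam. Both were highest in Dam-Sd replicate 3, the library that stood apart, and neither overlapped with Dam. The Gr59f call was lost in the span alone (-0.59).

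In Yki-Dam they were Or74a (-1.99 ± 0.57), Or94b (-1.41) and Or63a (-1.39 ± 0.36), then Gr22a (-1.87 ± 0.32), Gr58a (-1.67 ± 0.41) and Gr98b (-1.54), a receptor of the plant toxin canavanine, and Ir7f (-1.86 ± 0.28), Ir7d and Ir20a (both -1.37). Ir7f had 4.39, 3.48 and 3.59 CPM in Yki-Dam, against 15.1, 15.3 and 11.3 CPM in Dam, and Gr22a had 3.15, 4.19 and 2.97 CPM, against 10.5, 15.2 and 12.1 CPM. Neither overlapped. The calls of Or94b, Gr98b, Ir7d and Ir20a were lost on leaving out 1 library. Or94b was lost without Yki-Dam replicate 2 (-1.45) or 3 (-1.55) and Dam of Set 2 replicate 2 (-1.23) or 3 (-1.45), and Gr98b without Yki-Dam replicate 1 (-1.40) and Dam of Set 2 replicate 1 (-1.47) or 2 (-1.50). Ir7d was lost without Dam of Set 2 replicate 1 (-1.0), and Ir20a without Yki-Dam replicate 2 (-1.20) or 3 (-1.43) and Dam of Set 2 replicate 1 (-1.05) or 2 (-1.31).

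Against this low level, a receptor was taken as bound by a fusion where it was higher with and without the flanks and a peak of that fusion in the authors' deposited table touched its span. By this rule 8 receptors were bound by Dam-Sd (Gr39b, Gr77a, Gr93a, Ir100a, Ir21a, Ir67b, Ir68a and Or67a), 6 by Yki-Dam (Gr77a, Gr93a, Ir100a, Ir67b, Ir68a and Or67a) and 4 by Dam-Jra (Gr77a, Gr93a, Gr93d and Ir68a). These made 9 genes in all. The authors' peaks come from this same series, so a peak is no independent support for a call. With scaling by library size alone, only Gr93a, Gr77a and Ir68a kept each of these calls, and Ir100a kept that in Dam-Sd. In the authors' deposited table, Dam-Sd peaks touched the spans of 10 receptors (5.56%, against 19.5% of protein-coding genes), Yki-Dam peaks those of 6 (3.33%, against 15.5%) and Dam-Jra peaks those of 6 (3.33%, against 19.9%). Only 1 Or, Or67a, held a Dam-Sd peak, 1 held a Yki-Dam peak, and 0 held a Dam-Jra peak. The Dam-Sd and Yki-Dam comparisons, which have no library in common, called 9 of the same receptors higher, 69.2% of the Dam-Sd ones and 81.8% of the Yki-Dam ones, against 68.2% and 82.5% among all windows. They called 28 of the same receptors lower, 45.2% and 62.2%, against 37.7% and 71.3% among all windows. No receptor (0) was called in opposite directions, but the share of such calls among all windows is not given here, so that count describes the receptors alone.

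Gr93a, a receptor that bitter neurons need to taste caffeine, was bound in all 3. It lies on chr3R:21832503-21834013 and shares no GATC end with another gene. It had 176, 204 and 107 CPM in Dam-Sd, against 39.6, 30.5 and 29.1 CPM in Dam. In Yki-Dam it had 159, 129 and 136 CPM, against 34.8, 33.7 and 35.0 CPM in Dam. In Dam-Jra it had 156, 193 and 152 CPM, against 29.1, 35.0 and 53.9 CPM (lowest, median and highest) in the 9 Dam libraries. No fusion library overlapped with its Dam libraries, and the log2 fold changes were 2.29 ± 0.22 in Dam-Sd (4.91-fold, adjusted p = 2.69e-07), 2.04 ± 0.21 in Yki-Dam (4.10-fold, adjusted p = 2.14e-06) and 2.14 ± 0.15 in Dam-Jra (4.41-fold, adjusted p = 1.27e-09). In the authors' deposited table, the Dam-Sd and Yki-Dam peaks on the Gr93a span have the same bounds, chr3R:21832414-21833869. Their log2 folds are 1.82 and 1.68. The Dam-Jra peak on the span, with 1.64, starts further out at 21830691. Each fusion also has a peak beyond the gene, chr3R:21834555-21835064, with higher log2 folds of 2.88 (Dam-Sd), 2.47 (Yki-Dam) and 2.25 (Dam-Jra). Past the gene centre by 2875 bases, a bin with 4 ends held 55.1, 55.3 and 54.2 CPM in the same order. Dam of Sets 1, 2 and 3 held 13.0, 21.5 and 26.2 CPM there. The highest bins within the span, with 2 ends each, held 39.1, 32.4 and 41.7 CPM. The excess was thus not confined to Gr93a.

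Gr77a, on chr3L:20737569-20739430, lies inside CG13252. It had 120, 103 and 59.2 CPM in Dam-Sd, against 26.9, 21.3 and 16.8 CPM in Dam. In Yki-Dam it had 90.0, 90.3 and 107 CPM, against 19.9, 18.8 and 27.0 CPM in Dam, and in Dam-Jra 103, 115 and 102 CPM, against 16.8, 26.9 and 44.6 CPM in Dam. Again no libraries overlapped, and the log2 fold changes were 2.12 ± 0.24, 2.13 ± 0.24 and 1.99 ± 0.17 in Dam-Sd, Yki-Dam and Dam-Jra (1.39 in Dam-Jra with Dam of Set 3 alone). The host gene CG13252, which holds the same ends, rose by 2.85 ± 0.30, 1.64 ± 0.29 and 1.08 ± 0.22 in the same comparisons, so the reads over Gr77a cannot be told apart from those of its host.

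Ir68a, which moist-sensing neurons of the antenna need, gave the highest fold of any bound receptor in Dam-Jra. It lies on chr3L:11232972-11236218 and shares no end with another gene. It had 343, 377 and 325 CPM in Dam-Jra, against 25.7, 50.9 and 91.8 CPM in Dam, a log2 fold change of 2.71 ± 0.16 (6.52-fold, adjusted p = 8.37e-11), or 2.13 with Dam of Set 3 alone. In Dam-Sd it had 144, 146 and 97.0 CPM, against 48.4, 38.9 and 25.7 CPM in Dam (1.78 ± 0.22), and in Yki-Dam 113, 151 and 151 CPM, against 50.9, 47.7 and 53.6 CPM (1.45 ± 0.22). All fusion libraries stood above their Dam libraries. Most Dam-Jra reads lay in the flank at the higher coordinates, 281 CPM in Dam-Jra, against 38.2 CPM in Dam, while the span held 65.9 CPM, against 16.2 CPM in Dam. Within the authors' Dam-Jra peak, chr3L:11235759-11236752, the mean was 272 ± 17.3 CPM in Dam-Jra (SD, n = 3), against 28.1 ± 16 CPM in Dam (n = 9). Peaks were picked for such an excess in this same series, so levels within them are description and no further support. In the authors' deposited table that peak has a log2 fold of 2.46 and the Yki-Dam peak, which starts at the same base, 1.54, while the Dam-Sd peak, with 1.28, lies at the other end of the gene, chr3L:11232729-11233453. Within that Dam-Sd peak the mean was 12.5 CPM in Dam-Sd, against 4.86 CPM in Dam. Most Dam-Sd reads of the window lay elsewhere, in the same higher-coordinate flank as those of Dam-Jra. That flank held 103 CPM in Dam-Sd, against 22.5 CPM in Dam, and the span 20.9 CPM, against 13.1 CPM. In Yki-Dam the flank held 110 CPM, against 34.5 CPM in Dam.

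**Figure D4:**
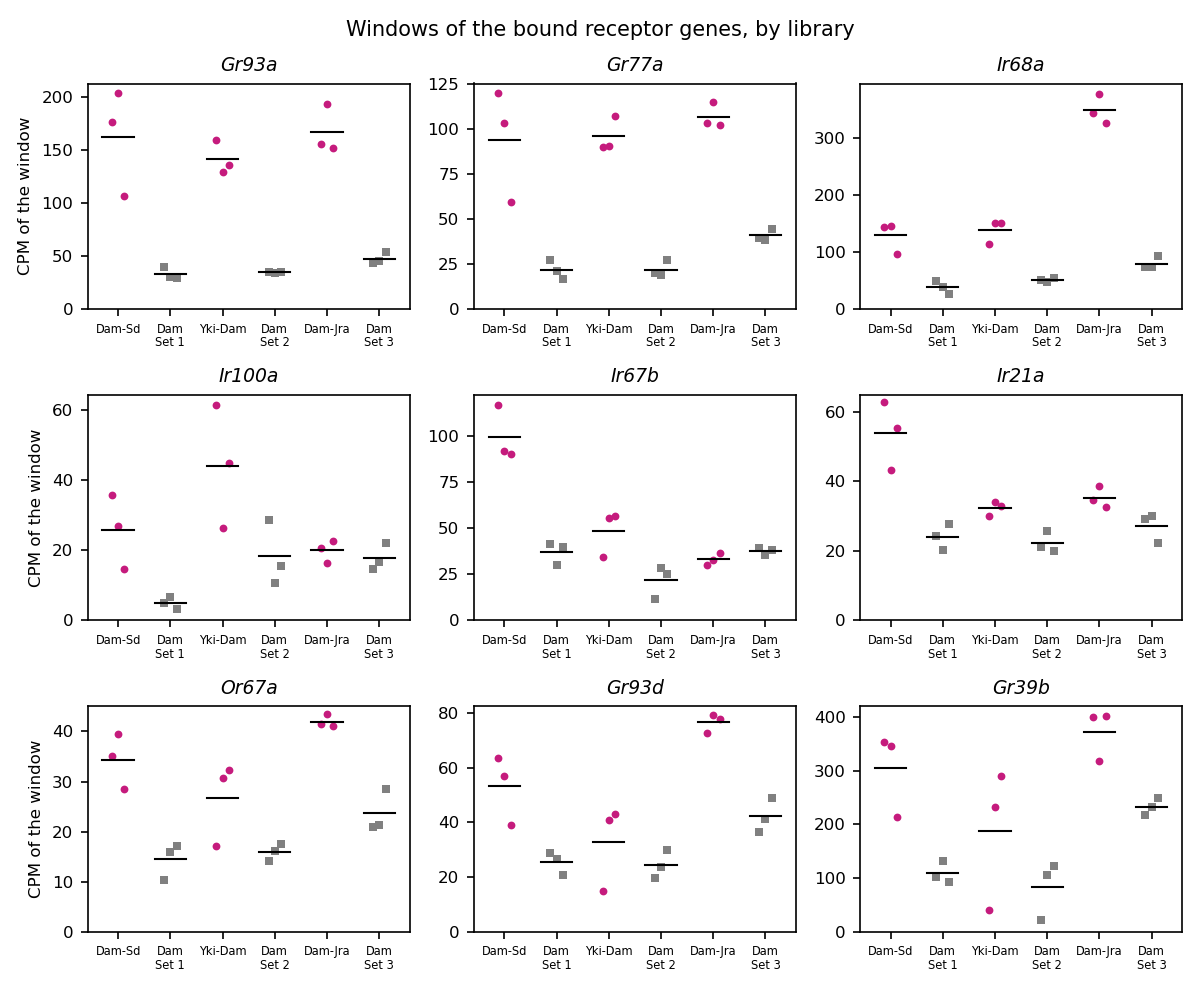
Scaled CPM on a linear axis of the 9 bound receptors in each fusion library (circles) and, to its right, each Dam library (squares). Bars are group means. For Gr93a, Gr77a and Ir68a the fusion libraries lie above all of their Dam libraries in each comparison, with Ir68a in Dam-Jra between 325 and 377 CPM.

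Ir100a, on chr3R:31800963-31802774 inside CG42233, had the highest Dam-Sd fold of all receptors. It had 35.8, 26.9 and 14.7 CPM in Dam-Sd, against 5.01, 6.70 and 3.29 CPM in Dam, a log2 fold change of 2.37 ± 0.39 (adjusted p = 4.97e-05) that was 3.78 in the span alone. The size of this fold rests on Dam of Set 1, whose libraries lay below all those of Sets 2 and 3. Dam-Sd overlapped the Dam libraries of both these sets, which ran from 10.6 to 28.5 CPM in Set 2. Ir100a kept the Dam-Sd call under every alternative run, at log2 values between 1.14 and 3.78. In Yki-Dam it had 61.3, 26.2 and 44.7 CPM, against 28.5, 10.6 and 15.5 CPM in Dam, with overlapping groups and a log2 of 1.27 ± 0.37 (adjusted p = 0.0122), a call lost without Yki-Dam replicate 1 (0.83) or Dam of Set 2 replicate 2 (1.00). CG42233 as a whole passed in none of the 3 (0.00, 0.51 and -0.10 in Dam-Sd, Yki-Dam and Dam-Jra). Ir67b, on chr3L:10429689-10431983, had 117, 91.8 and 90.2 CPM in Dam-Sd, against 41.4, 30.0 and 39.5 CPM in Dam (1.43 ± 0.26), and 34.5, 55.2 and 56.3 CPM in Yki-Dam, against 11.7, 28.4 and 25.0 CPM in Dam (1.16 ± 0.26). In Dam-Jra it did not pass (0.09 ± 0.21), and both called comparisons were free of overlap.

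Or67a, on chr3L:9529067-9531386, was the odorant receptor that met the rule. It had 35.0, 39.4 and 28.5 CPM in Dam-Sd, against 10.3, 15.9 and 17.1 CPM in Dam (1.25 ± 0.24, adjusted p = 0.000229). In Yki-Dam it had 17.1, 30.6 and 32.2 CPM, against 14.1, 16.1 and 17.6 CPM in Dam, which overlapped. That log2 of 0.74 ± 0.24 (adjusted p = 0.0204) was lost without Yki-Dam replicate 2 (0.47) or replicate 3 (0.43) or Dam of Set 2 replicate 1 (0.66), and turned to -0.08 with scaling by library size alone. In Dam-Jra it had 41.5, 43.4 and 41 CPM, against 10.3, 17.1 and 28.6 CPM in Dam (1.25 ± 0.18, and 0.83 with Dam of Set 3 alone), without a Dam-Jra peak in its span in the authors' deposited table.

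Ir21a, Gr39b and Gr93d lay beside or between genes that moved with them. Ir21a, a cooling receptor of the antenna and larva on chr2L:21823-25155, had 62.8, 43.4 and 55.3 CPM in Dam-Sd, against 24.4, 20.3 and 27.6 CPM in Dam (1.16 ± 0.19). Its neighbours in Dam-Sd were at 0.73 ± 0.19 for l(2)gl, the tumour suppressor of apical-basal polarity, and 0.95 ± 0.24 for Cda5, both called. Gr39b, on chr2L:21367908-21369706, had 353, 346 and 213 CPM in Dam-Sd, against 102, 132 and 92.6 CPM in Dam (1.48 ± 0.53, adjusted p = 0.0232). This call was lost without Dam-Sd replicate 1 (1.31) or 2 (1.41) and without Dam of Set 1 replicate 1 (1.44) or 3 (1.38). Of its mean Dam-Sd level, 271 CPM came from the flank towards dtr, against 89.7 CPM in Dam, and dtr itself was at 1.24 ± 0.38. Gr93d, on chr3R:21845454-21846659, had 72.8, 79.3 and 77.9 CPM in Dam-Jra, against 19.6, 28.6 and 48.9 CPM in Dam (1.37 ± 0.22, adjusted p = 1.91e-05), next to Gr93b (0.65 ± 0.23) and Gr93c (0.85 ± 0.21), which share ends with it. The part of these neighbours in the receptor values was not tested.

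**Figure D5:**
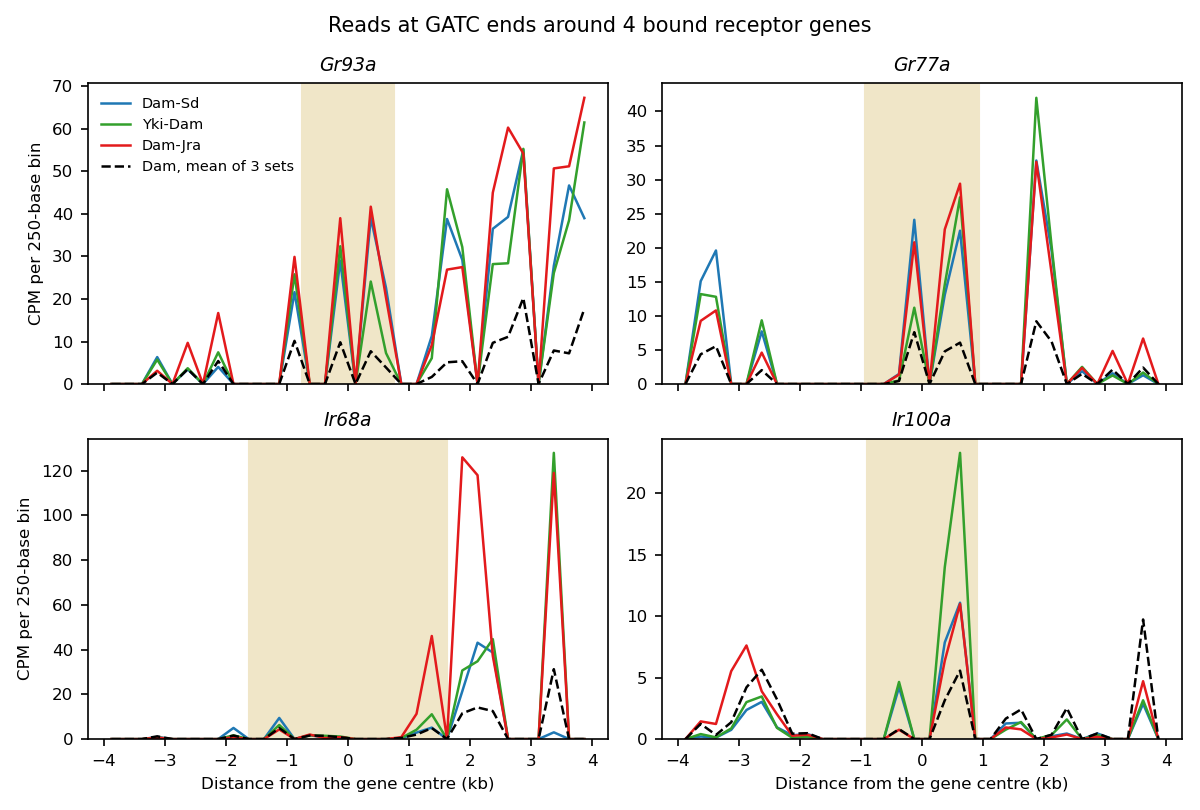
Mean scaled CPM per 250-base bin within 4 kb of the gene centre at Gr93a, Gr77a, Ir68a and Ir100a, for the 3 fusions (solid) and the mean of the 3 Dam sets (dashed); the shaded band is the gene span, and bins with no GATC end are drawn at 0. At Ir68a the Dam-Jra signal stands at and beyond the right edge of the span, and at Gr93a all 3 fusions rise over the span and beyond its right edge.

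Some receptors were higher only through a flank. Of the higher receptors, 9 of 13 in Dam-Sd, 6 of 11 in Yki-Dam, 11 of 18 in Dam-Jra, were also called in the span alone, and of the lower ones 44 of 62, 23 of 45 and 117 of 131. With spans alone, 22.5%, 17.7% and 29.4% of all genes rose and 26.8%, 11.4% and 35.0% fell in Dam-Sd, Yki-Dam and Dam-Jra. Gr89a rose most of all receptors in Dam-Jra, with 16, 17.9 and 15.6 CPM, against 1.04, 2.76 and 4.09 CPM in Dam (2.84 ± 0.23, adjusted p = 6.92e-09), and also rose in Dam-Sd (2.06 ± 0.33) and Yki-Dam (2.12 ± 0.33). Its 2 ends in the span gave 0.14, -0.12 and 0.30 in Dam-Sd, Yki-Dam and Dam-Jra, none called, so the excess lay at the 2 ends of the lower-coordinate flank. Ir48b rose in Yki-Dam with 52.0, 41 and 43.0 CPM, against 11.6, 9.33 and 18.4 CPM in Dam (1.79 ± 0.25, adjusted p = 2.91e-05), and its span gave 0.58, which did not pass. Or49a, which senses a scent of parasitoid wasps, rose in Dam-Sd with 36.6, 37.1 and 23.4 CPM, against 13.7, 14.7 and 12.3 CPM in Dam (1.25 ± 0.27), but was at -0.30 in the span.

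Ir76a, an amine receptor that works with Ir25a and Ir76b, rose in Dam-Jra with 106, 84.7 and 94.2 CPM, against 39.2, 50.2 and 73.2 CPM in Dam. The groups did not overlap, and the log2 fold change was 0.91 ± 0.15 (adjusted p = 3.56e-05), 1.09 with Dam of Set 3 alone and -0.02 with scaling by library size alone. Ir68b rose in Dam-Jra by 0.80 ± 0.19, but its value was -0.11 in the span and -0.13 with scaling by library size alone. The one window of Or10a and Gr10a was at 0.42 ± 0.14 (adjusted p = 0.0122), a call lost without Dam-Jra replicate 1 (0.37) or replicate 2 (0.39) and with Dam of Set 1 (0.26) or Set 3 (0.11) alone, and -0.50 with scaling by library size alone.

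The differences between fusions were tested directly, as differences of their fold changes. Between Dam-Sd and Yki-Dam 3 receptors differed, 0 higher and all 3 lower in Dam-Sd, where 1.19% of all windows were higher and 2.11% lower, 3.3% in all. They were Ir48b (-2.05 ± 0.35, adjusted p = 0.00637), Ir25a (-1.46 ± 0.29, adjusted p = 0.0152) and Ir93a (-0.93 ± 0.25, adjusted p = 0.0476). In the span alone none of these passed, at -0.97 for Ir48b and -0.89 for both Ir25a and Ir93a. The Ir93a difference was also lost on leaving out any 1 of these libraries except Dam-Sd replicate 3 and Dam of Set 1 replicate 2, with values between -0.96 and -0.60, and with either other scaling (-0.74 and -1.13). Leaving out Dam-Sd replicate 1 gave 5 receptors and leaving out Dam-Sd replicate 3 gave 18. Between Dam-Jra and Dam-Sd 79 differed, 18 higher and 61 lower in Dam-Jra, where 20.0% of all windows were higher and 22.1% lower, 42.1% in all. There were 39 with Dam of Set 3 alone for Dam-Jra, where 29.1% of all windows differed. The lower ones were 28 Or, 14 Gr and 19 Ir, led by Ir7e (-3.93 ± 0.60) and Or33a (-3.61 ± 0.73). Among the higher ones were Ir25a (1.93 ± 0.24), Ir76a (1.84 ± 0.23) and Ir68a (0.93 ± 0.25, adjusted p = 0.00617). Between Dam-Jra and Yki-Dam 63 differed, 9 higher and 54 lower in Dam-Jra, where 11.9% of all windows were higher and 14.4% lower, 26.3% in all. With Dam of Set 3 alone 15 did, where 8.67% of all windows differed. The count was 40 without Yki-Dam replicate 3 and 34, 37 and 34 without Dam-Jra replicates 1, 2 and 3. Ir68a was higher in Dam-Jra than in Yki-Dam by 1.26 ± 0.25 (adjusted p = 0.00141), whereas Orco was lower by 0.70 (adjusted p = 0.0482) and Ir48b by 2.78 ± 0.30.

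Other genes of the chemosensory system gave calls in both directions. These counts are to be read against the windows as a whole, of which 25.5% rose and 29.0% fell in Dam-Sd, 21.1% and 15.3% in Yki-Dam, 32.3% and 36.2% in Dam-Jra. Of 51 odorant-binding protein genes, 13 rose and 17 fell in Dam-Sd, 4 rose and 13 fell in Yki-Dam, and 12 rose and 29 fell in Dam-Jra, and their median Dam-alone percentile was 37.8. Obp56a stood at percentile 99.9 of the Dam-alone level and rose by 1.97 ± 0.28 in Dam-Sd, 1.25 ± 0.27 in Yki-Dam, 1.24 ± 0.21 in Dam-Jra. Of 12 glutamate receptor subunits, the relatives of the Ir genes, 2 rose and 5 fell in Dam-Sd, 1 rose and 4 fell in Yki-Dam, and 1 rose and 10 fell in Dam-Jra, with Nmdar1 as a riser at 1.06, 1.12 and 1.44. Of 18 regulators and general genes of sensory neurons, such as acj6, pdm3, ato and amos, 8 rose and 3 fell in Dam-Sd, 8 rose and 6 fell in Yki-Dam, and 10 rose and 5 fell in Dam-Jra. Of 13 other chemosensory genes, 5 rose and 4 fell, 5 rose and 3 fell, and 6 rose and 6 fell in the same order. Of the 7 rhodopsins, 2 rose in each fusion and 1, 1 and 4 fell in Dam-Sd, Yki-Dam and Dam-Jra, with Rh5 at 1.86, 2.21 and 1.28 and ninaE, the main rhodopsin of the outer photoreceptors, at 1.28, 0.77 and 1.77. Genes of blood cells, fat body and muscle, tissues that can adhere to dissected discs, were counted in the same way. Of 4 blood cell (haemocyte) genes 1 rose and 1 fell in Dam-Sd, 2 rose and 1 fell in Yki-Dam, and 1 rose and 2 fell in Dam-Jra. Of 3 fat body genes none rose (0) and 2, 1 and 3 fell. Of 4 muscle genes 0, 1 and 2 rose and 0, 0 and 1 fell. What these cells add to the receptor values was not tested.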

How the data were processed

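Per the labels' protocols, disc DNA was cut with DpnI, ligated to adaptors, cut with DpnII, amplified, sonicated and made into libraries with further PCR. The authors' deposited table gave whole-number read counts at each GATC end for 18 libraries (21.42 to 40.97 M each). Tools named in the submitters' processing notes were featureCounts, Subread, bedtools and edgeR, with dm6 as the build; their versions are not given in the sources used here. For each fusion the authors' deposited list of peaks gave a log2 fold and a p-value per peak, which are the authors' own, and neither the controls nor any pooling behind them is stated. PCR reads without molecular identifiers are not independent molecules, so read numbers understate the error.

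Counts were summed over 14206 windows, RefSeq gene spans (Release 6 plus ISO1 MT, that is dm6) with 1 kb on each side. Scaling used trimmed means of M values (factors 0.5601 to 1.62) and windows under filterByExpr's minimum count of 10 were left out, which kept 14090 and all 180 receptors. The 6 groups were fitted together in edgeR 4.0.16 (R 4.3.3, limma 3.58.1) and compared by the quasi-likelihood test with 12 residual degrees of freedom, Benjamini-Hochberg adjustment over all windows and an adjusted p below 0.05. SE is the size of the log2 fold over the square root of F. The fit was tested on simulated data. Percentiles, parts of windows and figures used Python 3.11.15, numpy 2.4.6, pandas 2.3.3 and matplotlib 3.10.9. Alternatives were other scalings, DESeq2 1.42.0, other windows, filters, thresholds and controls, the replicate block and leaving out each library.

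By their replicate numbers, Dam-Sd libraries paired with those of Dam Set 1 (correlations of same-numbered deviations 0.557, 0.373 and 0.371), judged from the data. Yki-Dam gave 0.616, 0.385 and 0.310 with Dam of Set 2, but its replicate 3 correlated more with Dam replicate 2 (0.365). Its replicate 2 gave 0.224 with Dam replicate 3, so the pairing of replicates 2 and 3 is not established. Dam-Jra paired neither with Set 1 (-0.238 to -0.0267) nor with Set 3 (-0.0926 to 0.0993).

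Genes named are the 3 highest and 3 lowest called of each family and comparison, the 5 highest and 5 lowest of each family by Dam level, 25 receptors of known role, the bound receptors and their neighbours. Obp56a, Nmdar1, Rh5, ninaE and the clusters were named after their values were seen. The genes, lists and tests were chosen with earlier results of these data known.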

Additional observations from a re-analysis of the deposited data

Results flagged for a closer look

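For 3 receptors the effect of Dam-Sd differed from that of Yki-Dam in a test of the difference itself, by -2.05 on the log2 scale for Ir48b, -1.46 for Ir25a and -0.93 for Ir93a. Ir48b was called higher in Yki-Dam through its flank only. Ir25a fell in both, by more in Dam-Sd. In the span alone none of the 3 differences passed. The effect of Dam-Jra differed from that of Dam-Sd for 79 of 180 receptors, where 42.1% of all windows differed, so the receptors were near the share of all windows. It differed from that of Yki-Dam for 63 of 180, where 26.3% of all windows did. Between Dam-Sd and Yki-Dam 3.3% of all windows differed, against 1.67% of the receptors. The causes of these differences were not tested.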

How the results depend on the processing

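Of 2111 alternative values of single receptors, 1908 kept direction and call, 127 lost the call, 56 gained it and 20 turned round, and 300 of 360 family counts stayed within 1.5 times. Scaling by library size alone left 5 higher and 137 lower receptors for Dam-Sd, 5 and 139 for Yki-Dam and 4 higher for Dam-Jra. It turned Gr28b (-0.38), Gr64a (-0.96) and Gr93d (-0.04) in Dam-Sd, Or67a (-0.08) and Ir8a (-0.79) in Yki-Dam, and Or10a (-0.50), Ir76a (-0.02), Ir68b (-0.13), Gr5a (-0.90), Gr28b (-0.88) and Gr64a (-0.69) in Dam-Jra. In the span alone, Or49a in Dam-Sd (-0.30), Gr89a in Yki-Dam (-0.12) and Or10a (-0.19), Ir68b (-0.11), Gr5a (-1.55) and Gr64a (-1.61) in Dam-Jra turned, Yki-Dam gave 6 higher and 27 lower, Dam-Sd and Yki-Dam differed for 0, and the Dam percentile was 37.1 (33.5 from Set 2 alone). With ends in no other span, Gr5a (-0.87) and Gr43a (0.00) turned in Dam-Jra, which gave 11 higher, and Yki-Dam gave 24 lower. Set against all 9 Dam libraries, Gr64a turned in Dam-Sd (-0.64).

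An adjusted p below 0.01 gave 38 lower in Dam-Sd, 7 higher and 16 lower in Yki-Dam, and 1, 45 and 27 receptors that differed between Dam-Sd and Yki-Dam, Dam-Jra and Dam-Sd, and Dam-Jra and Yki-Dam. Fitting only the libraries compared gave 38 lower in Dam-Sd. Set 3 alone gave 10 higher in Dam-Jra and 39 and 15 receptors that differed from Dam-Sd and Yki-Dam. The stronger-scoring part of the authors' peaks touched 3, 2 and 1 receptors for Dam-Sd, Yki-Dam and Dam-Jra (1.67%, 1.11% and 0.556%), against 11.1%, 8.14% and 11.9% of protein-coding genes. Dam-Jra peaks touched 13 windows with flanks (7.22%, against 26.8% of protein-coding genes). Shares over all windows are not given here for the 0.01 threshold, for ends in no other span or for fits of only the libraries compared. Nor are they given for leaving out 1 library or for the replicate block in Dam-Sd and Dam-Jra. Counts under these settings describe the receptors alone, without a comparison to all windows. The cause was not tested beyond what each alternative leaves out.

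The replicate block gave 14 higher and 53 lower for Dam-Sd, 13 and 95 for Yki-Dam, and 18 and 135 for Dam-Jra, which the numbers do not pair. Of the named receptors it ended the call of Orco in Dam-Sd and added, in Yki-Dam, Or42b (-0.68), Or67d (-0.57), Or92a (-0.98), Gr28b (-0.42), Gr63a (-0.60), Ir64a (-0.92) and Ir84a (-0.78). In Dam-Jra it added Or92a (-1.02), also with Set 3 alone (-0.62).

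Leaving out 1 library gave 11 to 15 higher and 46 to 86 lower for Dam-Sd, 8 to 12 and 31 to 56 for Yki-Dam, and 14 to 18 and 121 to 132 for Dam-Jra. The receptors that differed numbered 2 to 18 between Dam-Sd and Yki-Dam, 56 to 94 between Dam-Jra and Dam-Sd, and 34 to 63 between Dam-Jra and Yki-Dam. Gr93a, Gr77a and Ir68a kept their calls in each fusion under every alternative run. Most other bound calls were lost with scaling by library size alone. These were Gr39b and Ir21a in Dam-Sd, Ir67b and Or67a in Dam-Sd and Yki-Dam, Ir100a in Yki-Dam and Gr93d in Dam-Jra. At windows with under 20 reads, as Ir7e in Dam-Jra, depth limits the size of a fold.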
